A study of Mus musculus with 44 samples.

Results

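Histone modifiers and chromatin remodelers were followed at the RNA level in mouse granulosa cells stimulated with GDF9, together with the acetylation and SMAD occupancy of their promoters. Members were the genes whose symbols name a KMT or SET domain (SETD) lysine methyltransferase, a KDM lysine demethylase, an HDAC or SIRT deacetylase, the acetyltransferases *Ep300* and *Crebbp*, a SMARC, CHD or ARID protein, or a BRD bromodomain protein, whose normalized counts averaged at least 10. Of 99 matching symbols 92 passed that limit, among 12597 genes that passed it in all. The 7 left out were *Kdm5d*, *Arid3c*, *Hdac9*, *Chd5*, *Kdm4d*, *Brd8dc* and the pseudogene *Smarca5-ps*. The members comprised 18 methyltransferases, 16 demethylases, 2 acetyltransferases, 10 deacetylases of the HDAC family, 7 sirtuins, 14 subunits of SWI/SNF, 4 ISWI and other SNF2 ATPases, 9 CHD remodelers, 5 bromodomain proteins, 6 ARID proteins outside SWI/SNF and *Brd3os*, an antisense transcript. Classes follow the proteins' known complexes, so *Brd7*, *Brd9*, *Arid1a*, *Arid1b* and *Arid2* stood with SWI/SNF. Not all substrates of these enzymes are histones, and the mitochondrial sirtuins act outside the nucleus.

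RNA-seq was done on 2 libraries of cells treated with recombinant mouse GDF9 for 4 h and 2 of cells treated with vehicle for 4 h. The labels call the cells primary mouse granulosa cells. The study adds that they came from PMSG-primed young female mice homozygous for a PA epitope tag on SMAD3 (*Smad3* PA/PA). GDF9-treated and vehicle-treated cells therefore carry the same tagged allele. CUT&RUN, which maps a chromatin protein or mark by antibody-guided cutting, was done on the same line and treatments, with 2 replicates each for H3K27ac, SMAD2, PA (that is, tagged SMAD3) and SMAD4, and H3K27ac was also mapped in *Smad2* HA/+ cells, which carry 1 allele of SMAD2 with an HA tag. The study's methods for CUT&RUN speak of cells cultured before treatment and of pooled biological replicates. Which animals entered which library is not given in the sources used here, so p-values measure the spread between these samples, which may be technical.

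Histone-modifying enzymes write or remove marks that are read by other proteins, and remodelers spend ATP to slide, evict or exchange nucleosomes. The 6 catalytic subunits of the COMPASS family are grouped by the complex they form. SETD1A and SETD1B place methyl groups on lysine 4 of histone H3 at active promoters, KMT2A and KMT2B act at selected promoters such as those of developmental genes, and KMT2C and KMT2D monomethylate the same residue at enhancers. The KDM5 enzymes and KDM1A remove that mark. The acetyltransferases EP300 and CREBBP deposit H3K27ac, and HDACs remove histone acetylation. In granulosa cells GDF9, a TGF-beta family factor from the oocyte, signals through SMAD2, SMAD3 and SMAD4, and SMADs recruit EP300 and CREBBP to DNA.

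The 4 libraries held between 8827825 and 11416005 reads in genes. The granulosa cell markers *Inha* (14848 ± 54.6 normalized counts with GDF9 and 13937 ± 783 with vehicle, SD, n = 2 each) and *Foxl2* (771 ± 36.8 and 830 ± 5.65) were present. Of the 9 granulosa markers 7 were tested, and *Amh* and *Cyp19a1* were not among the genes tested. The sum over the list was 30304 and 30691 with GDF9 and 30003 and 31003 with vehicle, mostly from *Inha* and *Inhba*. *Fshr* was low, at 84.5 ± 7.27 with GDF9 and 79.1 ± 4.67 with vehicle. Within the list *Hsd17b1*, an enzyme of estradiol synthesis, was called higher (log2 fold change 0.29, limma adjusted p = 0.000166). The nuclear receptor gene *Nr5a2* was called lower (-0.29, adjusted p = 0.00189). Markers of endothelium, leukocytes and oocytes summed to at most 48.4 in any library. The stroma list summed to 1463 to 1519, mostly from *Col1a1*, and the surface epithelium list to 1812 to 1900, mostly from *Krt18*, with no gene of either called. The theca list summed to 7778 and 8073 with GDF9 and 7672 and 7619 with vehicle, nearly all from *Star*, which luteinizing granulosa cells also express, and 1 of its 3 genes was at 0. The GDF9 libraries stood apart in noncoding and mitochondrial RNA. *Malat1*, a nuclear noncoding RNA, had 28822 and 26912 normalized counts with GDF9 and 10976 and 11150 with vehicle, 5 of 5 long noncoding nuclear RNAs were called higher, and mitochondrially encoded transcripts took 3.56% and 3.25% of counts with GDF9 against 2.50% and 2.49% with vehicle.

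Across the 12597 genes, 2.44% were called higher with GDF9 and 0.707% lower, a call needing a limma adjusted p under 0.05 together with a change of over 0.18 on the log2 scale. Of the 92 members 6 rose (6.52%), 1 fell (1.09%) and 85 were not called. The 6 that rose were *Kmt2a*, *Kmt2d*, *Kmt2c*, *Setd1a*, *Kmt2b* and *Brd9*, and the 1 that fell was *Smarca1*. Thus 5 of the 6 COMPASS catalytic subunits were called higher, and no other methyltransferase was called. Nothing was called among the 16 demethylases, 10 HDAC genes, 7 sirtuins, 2 acetyltransferases, 9 CHD remodelers, 5 bromodomain genes or 6 other ARID genes. The median log2 fold change was 0.04 over the members and -0.01 over all tested genes. Both GDF9 libraries lay above both vehicle libraries for 30 members (32.6%, against 22.0% of all tested genes) and below them for 14 (15.2%, against 23.2%), and for 48 members the libraries of the groups overlapped.

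**Figure D1:**
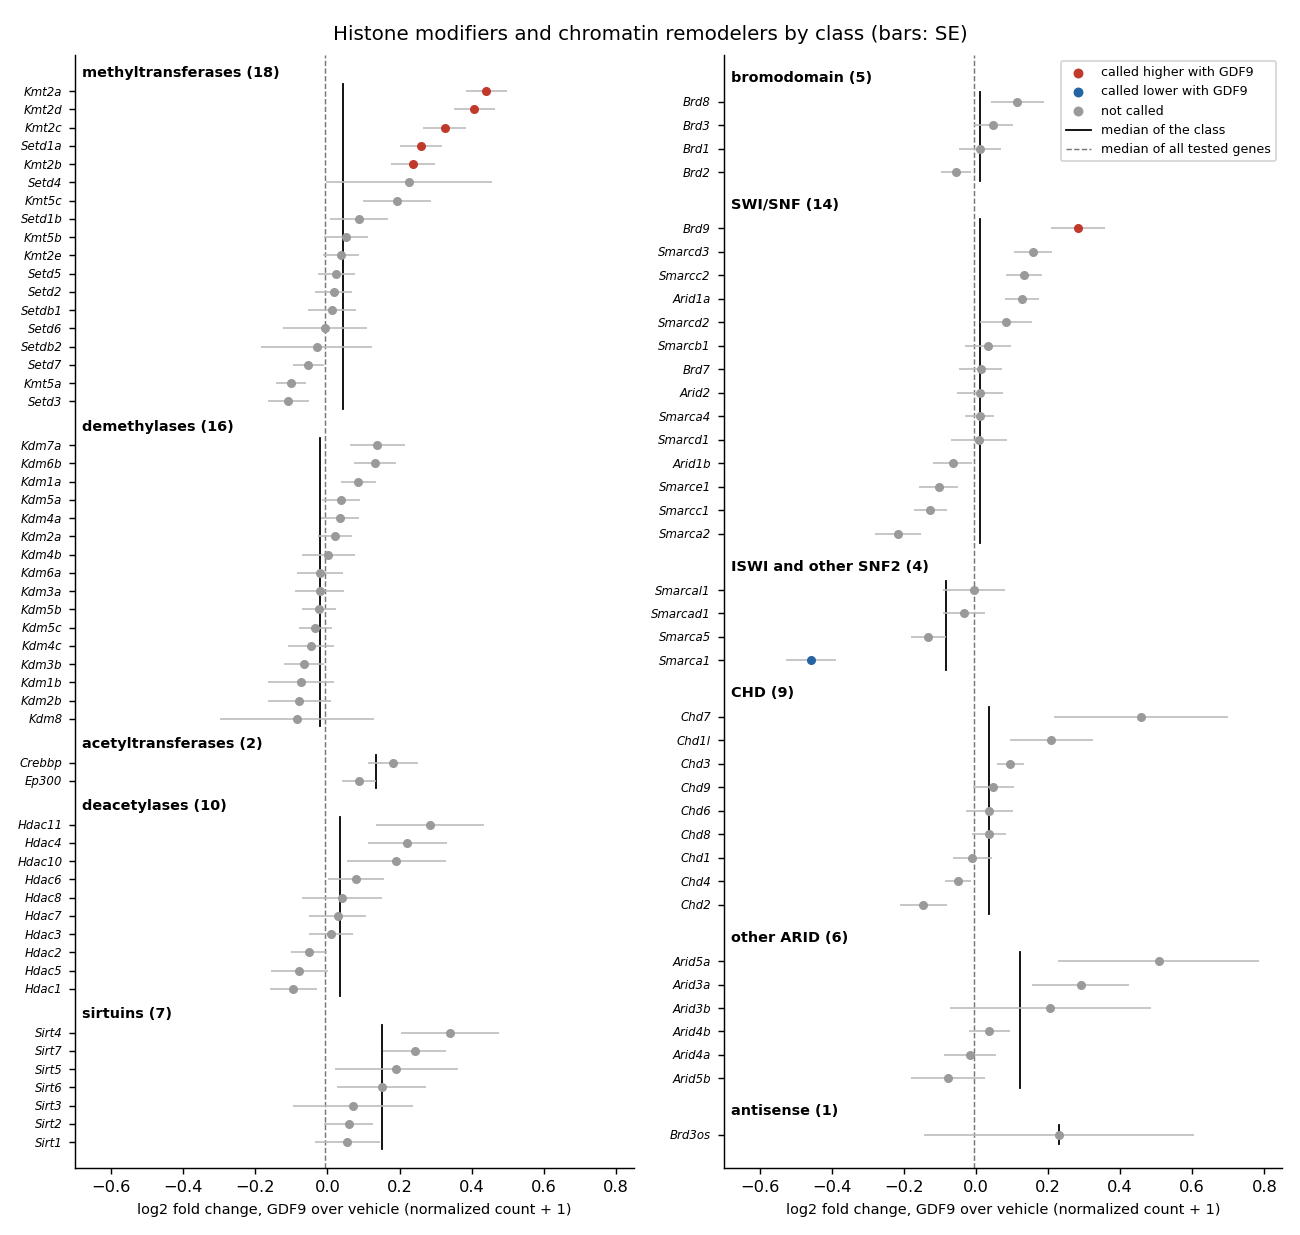
Log2 fold change (x axis, GDF9 over vehicle, on normalized count + 1, bars are SE, n = 2 libraries per group) of the members (rows) by class, with 1 member not drawn. Called members are red (higher) or blue (lower), the black line is each class's median and the dashed line is the median of all tested genes. Kmt2a, Kmt2d, Kmt2c, Setd1a and Kmt2b stand at the top of the methyltransferases, Brd9 at the top of SWI/SNF, and Smarca1 has the lowest value, -0.46.

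The promoters of called genes are given first as sequence. H3K27ac and SMAD occupancy were read over wider stretches, within 3 kb of each annotated start site. RefSeq windows (GRCm38.p6) run from 250 bases before the start of the gene to 50 bases after it, were found for 71 of the 92 members, and were found for all called members but *Kmt2b*. The windows of *Kmt2a* (chr9:44881240-44881539, minus strand), *Kmt2d* (chr15:98871156-98871455, minus strand), *Setd1a* (chr7:127777139-127777438, plus strand) and *Smarca1* (chrX:47892564-47892863, minus strand) are printed 5′ to 3′ with each CG dinucleotide in capitals.
Kmt2a: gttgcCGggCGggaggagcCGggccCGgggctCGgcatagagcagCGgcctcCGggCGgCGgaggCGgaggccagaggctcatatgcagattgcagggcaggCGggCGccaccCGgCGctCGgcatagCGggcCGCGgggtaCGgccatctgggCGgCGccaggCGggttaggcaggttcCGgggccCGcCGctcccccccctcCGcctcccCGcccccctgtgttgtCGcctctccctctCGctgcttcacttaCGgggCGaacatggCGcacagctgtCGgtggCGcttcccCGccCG
Kmt2d: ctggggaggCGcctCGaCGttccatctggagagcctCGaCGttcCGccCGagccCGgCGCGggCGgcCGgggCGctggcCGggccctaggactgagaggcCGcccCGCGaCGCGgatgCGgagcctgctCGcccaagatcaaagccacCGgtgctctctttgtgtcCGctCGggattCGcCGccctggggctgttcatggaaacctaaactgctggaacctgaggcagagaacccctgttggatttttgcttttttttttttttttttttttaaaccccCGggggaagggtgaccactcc
Setd1a: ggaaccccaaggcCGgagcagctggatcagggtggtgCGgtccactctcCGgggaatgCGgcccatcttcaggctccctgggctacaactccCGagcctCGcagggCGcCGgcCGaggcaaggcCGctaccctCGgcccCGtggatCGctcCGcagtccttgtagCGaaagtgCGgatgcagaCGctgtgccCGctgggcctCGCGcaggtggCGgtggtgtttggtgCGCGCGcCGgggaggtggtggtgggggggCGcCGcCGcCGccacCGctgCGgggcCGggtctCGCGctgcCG
Smarca1: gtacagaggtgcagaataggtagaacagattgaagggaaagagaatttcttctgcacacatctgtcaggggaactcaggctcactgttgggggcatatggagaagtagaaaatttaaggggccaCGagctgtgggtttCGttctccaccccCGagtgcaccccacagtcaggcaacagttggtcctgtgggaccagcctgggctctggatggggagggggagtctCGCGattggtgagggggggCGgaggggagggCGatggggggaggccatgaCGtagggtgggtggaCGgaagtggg

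CG dinucleotides numbered 36 in the *Kmt2a* window, 27 in that of *Kmt2d*, 35 in that of *Setd1a* and 56 in that of *Kmt2c*. The windows of *Brd9* held 40 and 39, and that of *Smarca1* held 9. Of the windows of members 45.7% held 27 or more and 11.7% held 9 or fewer, and a link of CG number with direction was not tested. The median was 24.5 over the 94 windows of members and 7 over all 32851 windows in the table, of which 94.6% held at least 1 CG, 15.5% held 27 or more and 56.5% held 9 or fewer. The windows were searched on both strands for CAGAC (the SMAD core), TGANTCA (AP-1), TGACGTCA (CRE) and GCGTGGGCG (EGR1), none of which contains another. *Setd1a* held 1 CAGAC, and the windows of *Kmt2a*, *Kmt2c*, *Kmt2d*, *Brd9* and *Smarca1* held none of the 4. CAGAC occurred in 49.6% of all windows, TGANTCA in 7.81%, TGACGTCA in 1.79% and GCGTGGGCG in 0.612%.

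*Kmt2a* and *Kmt2d* showed the largest increases of any called member. *Kmt2a*, which encodes the MLL1 methyltransferase, had 1333 and 1237 normalized counts with GDF9 and 981 and 912 with vehicle. Both GDF9 libraries were above both vehicle libraries, with a gap larger than the distance between replicates, and the log2 fold change was 0.44 (SE 0.06, limma adjusted p = 3.37e-06), or 35.7% higher. *Kmt2d*, an enhancer methyltransferase that the study marks in its volcano plot, had 1714 and 1486 with GDF9 and 1200 and 1206 with vehicle. Its GDF9 replicates lay farther apart than its vehicle replicates but did not overlap them, and the log2 fold change was 0.41 (SE 0.06, adjusted p = 1.15e-05).

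*Kmt2c*, the paralog of *Kmt2d* in the second enhancer complex, had 1149 and 1019 normalized counts with GDF9 and 862 and 864 with vehicle. It was higher in both GDF9 libraries, with a log2 fold change of 0.33 (SE 0.06, adjusted p = 0.000665). *Setd1a* had 887 in either GDF9 library and 742 and 741 with vehicle, so its replicates nearly coincided (log2 fold change 0.26, SE 0.06, adjusted p = 0.00706). *Kmt2b*, the paralog of *Kmt2a*, had 925 and 849 with GDF9 and 745 and 758 with vehicle, and rose by the least of the 5 (0.24, SE 0.06, adjusted p = 0.021). *Kmt2a*, *Kmt2d* and *Kmt2c* kept their calls without any 1 library. *Setd1a* lost its call without either vehicle library (adjusted p = 0.0749 and 0.0657), and *Kmt2b* lost it without any library other than GDF9 replicate 2 (0.0910 to 0.210). DESeq2 on the recovered reads called *Kmt2a*, *Kmt2d* and *Kmt2c* and neither *Setd1a* (adjusted p = 0.196) nor *Kmt2b* (0.376), whereas edgeR's quasi-likelihood test called all 5 (1.52e-06 to 0.0185).

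*Setd1b*, the remaining subunit and paralog of *Setd1a*, had 549 and 464 normalized counts with GDF9 and 508 and 445 with vehicle. Its groups overlapped, and its log2 fold change of 0.09 (SE 0.08) did not pass the test (adjusted p = 0.663), although whether it differed from that of *Setd1a* was not tested. Summed over the 6 subunits, counts came to 6558 and 5942 with GDF9 and 5038 and 4926 with vehicle, a ratio of means of 1.25. *Kmt2e*, which shares the KMT2 name but has no established activity on lysine 4, had 1448 and 1400 with GDF9 and 1420 and 1355 with vehicle. Per kb of the longest annotated transcript, levels with GDF9 ran from 57.2 normalized counts (*Setd1b*) through 72.4 (*Kmt2c*), 78.0 (*Kmt2a*), 80.7 (*Kmt2d*) and 105 (*Kmt2b*) to 137 (*Setd1a*). With vehicle they were 53.8 (*Setd1b*), 57.5 (*Kmt2a*), 57.7 (*Kmt2c*), 60.7 (*Kmt2d*), 88.8 (*Kmt2b*) and 114 (*Setd1a*), so *Setd1a* and *Kmt2b* led and *Setd1b* stood last in both groups. None of the 12 shared subunits of COMPASS complexes was called, and their median log2 fold change was -0.05.

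**Figure D2:**
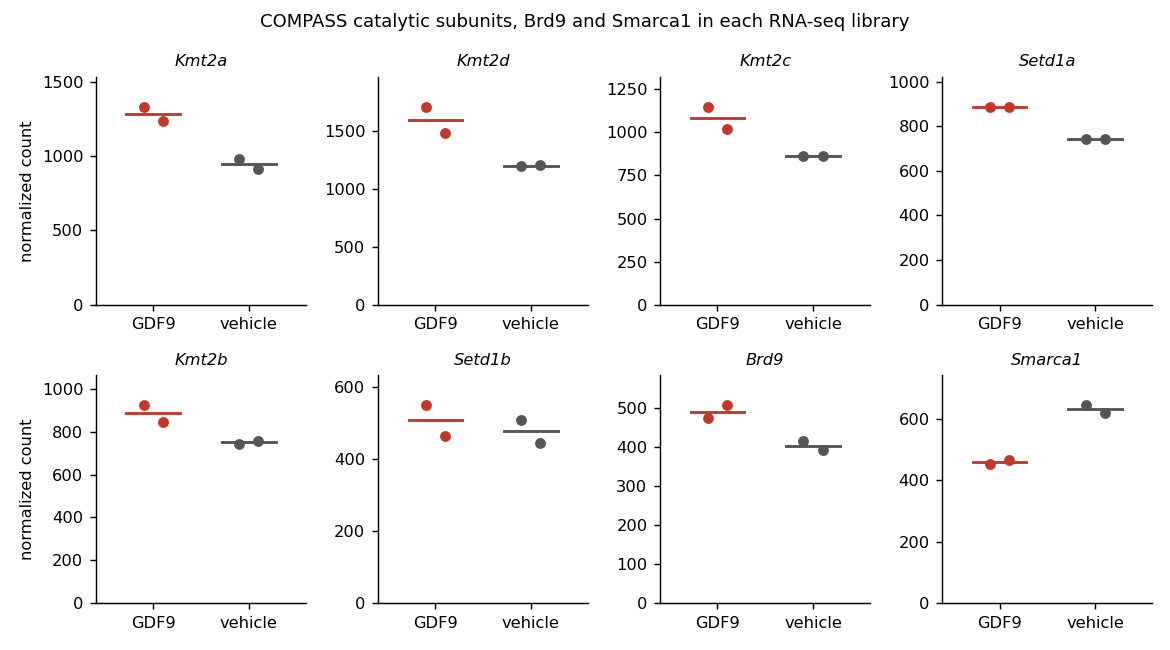
Normalized counts (y axis, from 0) of the 6 COMPASS catalytic subunits, Brd9 and Smarca1 in each library, with GDF9 (red) left of vehicle (gray). Points are libraries and lines are means of 2. The groups are apart in every panel but that of Setd1b, and Smarca1 is the gene that was lower with GDF9, at 453 and 467 against 645 and 620.

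Transcript length and nuclear RNA are given here beside the increase of these methyltransferases. The longest annotated transcripts of *Kmt2d*, *Kmt2a* and *Kmt2c* have 19823, 16470 and 14967 bases, the 3 longest of any member, against 8469 for *Kmt2b*, 6487 for *Setd1a* and 2430 for *Brd9*. Among all tested genes, 12.9% of the 318 with a transcript over 10000 bases were called higher, against 2.07% of the 12186 at or below that length, and above 15000 bases 16 of 51 were (31.4%). Of the 9 members over 10000 bases 3 were called higher (33.3%), and of the 83 others 3 were (3.61%). The 6 long members that were not called were *Chd6*, *Chd7*, *Chd9*, *Kdm5a*, *Arid1b* and *Crebbp*. Spearman's rho between log2 fold change and transcript length was -0.008 over all 92 members and -0.023 over 12504 tested genes. Both values describe genes that share the same 4 libraries. The limits of 10000 and 15000 bases were chosen after the values were seen, and the part of length, or of the higher *Malat1* and other nuclear RNA described above, in the increase was not tested.

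**Figure D3:**
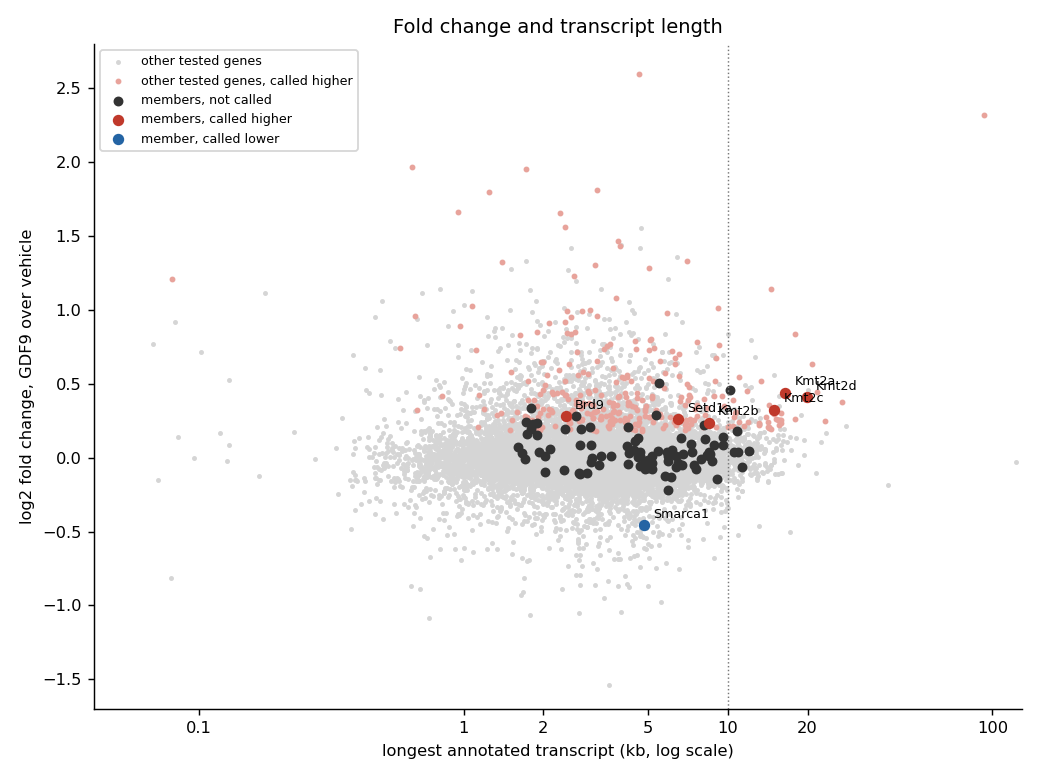
Log2 fold change (y axis, GDF9 over vehicle) against the longest annotated transcript (x axis, kb, log scale) of 12504 tested genes. Gray points are genes outside the set, light red points those called higher, and large points members, red if called higher and blue if called lower. The dotted line marks 10 kb, right of which lie Kmt2a, Kmt2c and Kmt2d and 6 members that were not called.

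The 12 methyltransferases outside COMPASS held no call, with log2 fold changes between -0.11 and 0.23 and a median of 0.01. *Setd7*, which monomethylates lysine 4 of histone H3 and other proteins, was the most abundant of them, with 2804 and 2660 normalized counts with GDF9 and 2924 and 2744 with vehicle. *Setd3*, an actin histidine methyltransferase in spite of its name, had the lowest value of the class, with 843 and 855 with GDF9 and 894 and 937 with vehicle (-0.11, SE 0.06, adjusted p = 0.375). Beyond the set, none of 18 other methyltransferases and none of 27 Polycomb genes was called.

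None of the 16 enzymes that remove lysine methylation was called, and no test compared them with the methyltransferases. The demethylases had log2 fold changes between -0.08 and 0.14 and a median of -0.02, the narrowest range of the classes with more than 5 members. The 5 bromodomain genes spanned less, from -0.06 to 0.12. The 6 with reported activity on lysine 4 of histone H3 (*Kdm1a*, *Kdm1b*, *Kdm2b*, *Kdm5a*, *Kdm5b* and *Kdm5c*) summed to 7464 and 7242 normalized counts with GDF9 and 7351 and 7377 with vehicle. *Kdm5c*, the X-linked and most abundant of the class, had 2444 and 2271 with GDF9 and 2338 and 2487 with vehicle. *Kdm7a*, which removes methyl groups from lysines 9 and 27 of histone H3, had the highest value (454 and 432 against 410 and 395, 0.14, adjusted p = 0.392), and *Kdm8* the lowest (53.4 and 47.4 against 64.3 and 44.3, -0.08, adjusted p = 0.904). *Kdm6b*, a demethylase of lysine 27 of histone H3, had 1159 and 1032 with GDF9 and 1001 and 995 with vehicle (0.13, SE 0.06, adjusted p = 0.252). Over the 13 alternative fits its value ran from 0.05 to 0.22, the latter without GDF9 replicate 2, and 1 of the 13 called it.

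The acetyltransferases and deacetylases held no call in either direction. *Ep300* had 1744 and 1730 normalized counts with GDF9 and 1651 and 1618 with vehicle, and *Crebbp* 635 and 593 with GDF9 and 568 and 515 with vehicle. For both genes the GDF9 libraries were the higher ones, by log2 fold changes of 0.09 (SE 0.05, adjusted p = 0.376) and 0.18 (SE 0.07, adjusted p = 0.172). None of 12 other acetyltransferases was called.

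The HDACs were read by class. The class I enzymes *Hdac1*, *Hdac2*, *Hdac3* and *Hdac8*, the first 3 of which form the catalytic cores of corepressor complexes, summed to 3061 and 3242 normalized counts with GDF9 and 3213 and 3273 with vehicle. *Hdac1*, which the study names among enriched regulators of genes lowered by GDF9, had 651 and 735 with GDF9 and 727 and 750 with vehicle, and its groups overlapped (-0.09, SE 0.07, adjusted p = 0.529). *Hdac2*, its paralog and the most abundant of the class, had 1520 and 1605 with GDF9 and 1604 and 1632 with vehicle. Of the class IIa enzymes, which shuttle between nucleus and cytoplasm, *Hdac5* had 456 and 428 with GDF9 and 433 and 502 with vehicle (-0.08, SE 0.08, adjusted p = 0.696). *Hdac4*, another class IIa enzyme, is named by the study among its up-regulated direct targets, but was not called here. The study's own DESeq2 fit called more genes in either direction than the limma fit used here. *Hdac4* had 234 and 204 with GDF9 and 178 and 197 with vehicle. Its groups did not overlap, and its log2 fold change of 0.22 (SE 0.11) had an adjusted p of 0.329. *Hdac11*, the sole class IV enzyme, had the highest value of the family, with 108 and 104 with GDF9 and 86.1 and 87.7 with vehicle (0.28, SE 0.15, adjusted p = 0.367). None of 19 corepressor genes was called.

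All 7 sirtuins, the NAD-dependent deacetylases, had a log2 fold change above 0, against 47.9% of all tested genes, but none was called. That count rests on single libraries, since *Sirt2* stood at -0.01 without vehicle replicate 2 and *Sirt3* at -0.0038 without GDF9 replicate 2. The class had a median of 0.15. In 4 of the 7 both GDF9 libraries lay above both vehicle libraries (57.1%, against 22.0% of all tested genes). *Sirt4*, a mitochondrial sirtuin, had 136 and 133 normalized counts with GDF9 and 109 and 103 with vehicle (0.34, SE 0.14, adjusted p = 0.194). *Sirt7*, a nucleolar sirtuin, had 340 and 351 with GDF9 and 302 and 283 with vehicle (0.24, SE 0.09, adjusted p = 0.136). *Sirt1*, which the study names as an enriched regulator, had 292 and 287 with GDF9 and 273 and 284 with vehicle (0.05, SE 0.09, adjusted p = 0.83). *Sirt2*, mainly a cytoplasmic tubulin deacetylase, was the most abundant, with 597 and 618 with GDF9 and 613 and 555 with vehicle.

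Of the 14 SWI/SNF subunits 1 rose and 13 were not called, with a median log2 fold change of 0.01. Both GDF9 libraries lay above both vehicle libraries for 4 of them and below for 4 (28.6% each, against 22.0% and 23.2% of all tested genes). *Brd9*, the bromodomain subunit particular to the noncanonical complex (ncBAF), rose. It had 473 and 507 normalized counts with GDF9 and 415 and 391 with vehicle, without overlap (0.28, SE 0.08, adjusted p = 0.0291). Its call was lost without GDF9 replicate 2 and without either vehicle library (adjusted p = 0.0681 to 0.222) and in DESeq2 (0.503). *Brd7*, its paralog in the polybromo-containing complex, had 769 in either GDF9 library and 782 and 743 with vehicle. *Smarca4*, the ATPase BRG1 and the most abundant member of the class, had 3345 and 3209 with GDF9 and 3320 and 3190 with vehicle (0.01, SE 0.04, adjusted p = 0.943).

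*Smarca2*, the alternative ATPase BRM, stood just outside the threshold. It had 598 and 637 normalized counts with GDF9 and 712 and 723 with vehicle, without overlap (-0.22, SE 0.06, adjusted p = 0.0535). Of 13 alternative fits 3 called it lower, among them limma with a replicate block (adjusted p = 0.0183) and with a minimum mean of 50 (0.0467). Neither edgeR (adjusted p = 0.0559) nor DESeq2 (0.732) called it, and its log2 fold change ran from -0.26 to -0.17 over the alternatives. *Smarca2* took 15.2% and 16.6% of the summed counts of *Smarca2* and *Smarca4* with GDF9, against 17.7% and 18.5% with vehicle. *Smarcd3* (0.16, adjusted p = 0.106), a variable subunit, and *Smarcc1* (-0.13, adjusted p = 0.146), a core scaffold, were the next members below the threshold in this class. *Smarcd3* had 1156 and 1133 with GDF9 and 1015 and 1036 with vehicle, and *Smarcc1* 2014 and 1884 with GDF9 and 2152 and 2101 with vehicle. None of 14 further SWI/SNF subunits was called.

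*Smarca1*, which encodes the ISWI ATPase SNF2L, was the member called lower. It had 453 and 467 normalized counts with GDF9 and 645 and 620 with vehicle, and the distance between groups was far larger than that between replicates. The log2 fold change was -0.46 (SE 0.07, adjusted p = 4.34e-05), or a fold of 0.728, and it was called in each of the 13 alternative fits, with values between -0.49 and -0.43. *Smarca5*, which encodes the paralogous ATPase SNF2H, had 1602 and 1549 with GDF9 and 1751 and 1701 with vehicle, a smaller difference that did not pass the test (-0.13, SE 0.05, adjusted p = 0.14). *Smarca1* made up 22.0% and 23.2% of the counts of the pair with GDF9 and 26.9% and 26.7% with vehicle. These shares did not overlap, and an exact two-sided permutation test of 2 against 2 libraries gave 0.333, the smallest p such a design allows. Per kb of transcript, *Smarca1* stood at 95.9 with GDF9 and 132 with vehicle, and *Smarca5* at 258 and 282. In bulk RNA, fewer cells that express a gene and less RNA per cell cannot be told apart. Of 15 further remodeler genes, among them ISWI partners, none was called.

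The CHD family held the most abundant member of the whole set. *Chd4*, the ATPase of the NuRD complex, had 6054 and 6082 normalized counts with GDF9 and 6303 and 6261 with vehicle (-0.05, SE 0.04, adjusted p = 0.54). *Chd1l*, a remodeler recruited by poly(ADP-ribose), had the highest value among CHD genes with a mean of at least 50 (202 and 185 against 158 and 176, 0.21, adjusted p = 0.389), and *Chd2* the lowest (660 and 606 against 720 and 680, -0.15, adjusted p = 0.266). Among bromodomain genes, *Brd2* and *Brd3*, whose proteins bind acetylated histones, had log2 fold changes of -0.06 and 0.05, and *Brd1* and *Brd8* 0.01 and 0.12. *Brd2*, the most abundant of them, had 3481 and 3328 with GDF9 and 3491 and 3583 with vehicle. Of the other ARID genes, *Arid3a* had 157 and 132 with GDF9 and 121 and 114 with vehicle (0.29, adjusted p = 0.285), *Arid5b* 214 and 202 against 222 and 218, and *Arid4b* 908 and 918 against 900 and 880. *Brd3os*, antisense to *Brd3*, had 22.2 and 12.6 with GDF9 and 17.2 and 11.5 with vehicle, and how counting treated strand is not given in the sources used here. Outside the set, *Uhrf1*, which guides maintenance DNA methylation, was the 1 called gene of 126 companion chromatin genes, with 283 and 254 with GDF9 and 351 and 328 with vehicle (-0.34, SE 0.09).

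H3K27ac was read at the promoters of members, that is, within 3 kb of an annotated start site. A region, where peaks of both replicates overlap, lay at the promoter of 78 of 92 members with GDF9 (84.8%, against 69.6% of 12504 tested genes) and 79 with vehicle (85.9%, against 69.7%). Members were also more abundant than other tested genes, with a median of 679 normalized counts against 316 over all, and the part of that level in the higher share was not tested. The highest peak signal at each promoter with a peak in all 4 libraries, which held for 75 members, was compared by limma on the log2 scale. Of 8149 promoters tested 0% were called changed (0 at an adjusted p under 0.05, 2 at an unadjusted p under 0.05), and of the 75 members 0 were called and 0 had an unadjusted p under 0.05. The median SE over members was 0.49 on the log2 scale, and 0.25 with the replicate number as a block, where 0 members were called and 2 had an unadjusted p under 0.05. The libraries differed by replicate, with a median signal over members of 20.4 and 30.4 with GDF9 and 19.3 and 27.5 with vehicle.

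At the *Kmt2a* promoter the H3K27ac signal in *Smad3* PA/PA cells was 15.8 and 23.3 with GDF9 and 14.5 and 13.0 with vehicle. The log2 difference was 0.48 (SE 0.49). At *Kmt2d* it was 17.0 and 39.4 with GDF9 and 20.5 and 26.0 with vehicle, and at *Setd1a* 21.5 and 28.6 with GDF9 and 20.5 and 37.6 with vehicle, so that both overlapped between groups. At *Kmt2b* the signal was 28.3 and 23.3 with GDF9 and 30.1 and 26.0 with vehicle (log2 difference -0.13). At *Kmt2c* it was 19.2 and 28.6 with GDF9 and 19.3 and 24.6 with vehicle (0.11). *Setd1b*, the COMPASS subunit not called in RNA, had the highest signal of the 6, at 50.9 and 71.6 with GDF9 and 50.6 and 69.4 with vehicle. *Brd9* had a peak in 3 of 4 libraries, at 17.9 in GDF9 replicate 2 and at 18.1 and 18.8 with vehicle. In *Smad2* HA/+ cells the signal at *Kmt2a* was 15.1 and 43.6 with GDF9 and 46.9 and 44.6 with vehicle, so GDF9 was not the higher group there.

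*Smarca1* had no H3K27ac peak within 3 kb of any of its 3 annotated start sites in the 4 libraries of *Smad3* PA/PA cells. In *Smad2* HA/+ cells its promoter had signals of 10.8 and 10.9 with GDF9 and 11.6 and 10.2 with vehicle. In all, 8 members had no peak in the *Smad3* PA/PA libraries (*Smarca1*, *Arid5a*, *Sirt5*, *Setdb1*, *Chd7*, *Hdac11*, *Arid3b* and *Hdac6*), of which *Smarca1* and *Setdb1* had one in all 4 libraries of *Smad2* HA/+ cells. That combination held for 2.17% of members and 2.37% of tested genes. In *Smad2* HA/+ cells 34 of 9224 promoters were called changed, and 0 of 81 members, with 8 members at an unadjusted p under 0.05 and a median SE over members of 0.12.

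**Figure D4:**
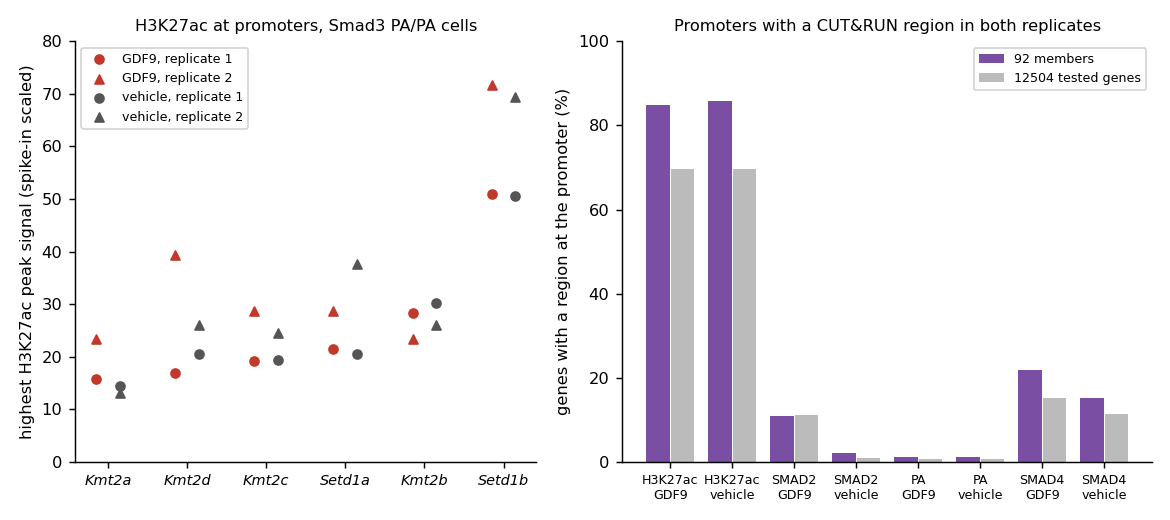
Left, highest H3K27ac peak signal (y axis, spike-in scaled) at the promoters of the 6 COMPASS catalytic subunits, GDF9 (red) left of vehicle (gray), circles for replicate 1 and triangles for replicate 2. Right, percent of the 92 members (purple) and of 12504 tested genes (gray) with a CUT&RUN region in both replicates at the promoter, by target and treatment. Setd1b has the highest signals of the 6 subunits, and the share with an H3K27ac region is 84.8% with GDF9 and 85.9% with vehicle for members.

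SMAD regions, like those of H3K27ac, needed overlapping peaks of both replicates, and single lists reached more promoters. SMAD4 peaks of GDF9 replicates 1 and 2 lay at 47.8% and 53.3% of member promoters, against 40.4% and 45.1% of tested genes. For vehicle replicates 1 and 2 the shares were 45.7% and 38.0%, against 39.5% and 33.0%. With GDF9, SMAD2 regions lay at the promoters of 10 members (10.9%, against 11.2% of tested genes), and with vehicle at 2 (2.17%, against 0.840%). The vehicle count is tied to 1 list, since replicate 2 held 23082 SMAD2 peaks and replicate 1 held 78766. In replicate 1 alone, 30.4% of members had a SMAD2 peak with GDF9 and 44.6% with vehicle, against 31.6% and 28.9% of tested genes. The 10 members with GDF9 were *Arid1a*, *Arid3b*, *Arid4b*, *Kdm1b*, *Kdm4a*, *Kdm4b*, *Kmt5c*, *Setd5*, *Sirt2* and *Sirt3*. PA regions lay at 1 member promoter with GDF9 (*Kdm3a*, 1.09%, against 0.768%) and at 1 with vehicle (*Smarcad1*, 1.09%, against 0.720%). SMAD4 regions lay at 20 with GDF9 (21.7%, against 15.1%) and at 14 with vehicle (15.2%, against 11.3%), among them *Hdac4*, *Kdm6b* and *Arid1a* with GDF9. None of the 7 called members had a SMAD2, PA or SMAD4 region at its promoter in either treatment, and *Arid1a*, *Arid3b*, *Arid4b*, *Kdm1b*, *Kdm4a* and *Kmt5c*, which had both a SMAD2 and a SMAD4 region with GDF9, were not called in RNA. Regions farther than 3 kb from a start site were not assigned to genes. The study's own definition of a bound gene was wider, since it also counted peaks in UTRs, exons and first introns.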

How the data were processed

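Granulosa cells of tagged mice were treated with GDF9 or vehicle for 4 h, with 2 libraries per group. Sample titles gave the groups and replicate numbers, and the text of the study's results gave the *Smad3* PA/PA origin of the RNA.

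The RNA-seq values are the authors' normalized counts (unit signal, as deposited), reads per gene divided by 1 size factor per library. The authors aligned reads to mm10 with STAR 2.7.11b, counted with featureCounts 2.1.1 and normalized with DESeq2 1.48.2. Whole reads were recovered by dividing by the smallest step (100% of values whole within 0.05 reads), and the library whose step lies close to 1 was treated likewise. Of 27179 entries 1314 had no values per library, and 3 unnamed columns stayed unused. The deposited peak lists give total and maximum signal per peak, called by the authors with SEACR after Bowtie2 alignment and scaling to E. coli spike-in reads. The role of IgG in peak calling is not given in the sources used here, and no IgG peak list was used here. How precise a value is depends on depth, which was 8827825 to 11416005 reads in genes.

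Members and gene lists were chosen with earlier results of these data known. In R 4.3.3, limma 3.58.1 with trend was fitted to log2(value + 1) for all 12597 genes with a mean of at least 10, with Benjamini-Hochberg adjustment over all of them. edgeR 4.0.16 and DESeq2 1.42.0 on recovered reads were alternatives, because the design named count tests for whole reads only. The fits and the overlap of peaks were tested on simulated data. H3K27ac was compared by limma on the log2 maximum signal. Promoters and transcript lengths came from GENCODE vM21 (GRCm38, 12504 genes matched). Transcript length stood in for protein length, for which no table was used here. Python 3.11.15, pandas 2.3.3, scipy 1.17.1 and matplotlib 3.10.9 were used.

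Named genes were the called members, those the study names with *Smarca4*, *Ep300* and *Crebbp*, in each class the largest increase and decrease among members with a mean of at least 50 and the highest mean, relatives of called members, the 5 members next to the threshold, and called companion genes. Other genes named, such as *Kdm6b* and *Malat1*, were chosen after their values were seen or to list a group in full. The values of 1 member that the rule names are not reported here. Alternatives changed the offset, filter, scaling, test and fold limit, left out 1 library at a time, added a replicate block, and changed the promoter width, peak threshold and overlap. The tests of the 2 lines' difference, of edgeR with a block and of members by transcript length were added after the data were seen.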

Additional observations from a re-analysis of the deposited data

How the results depend on the processing

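The 6 increases and 1 decrease were the same in number with offsets of 0.5 and 8, TMM scaling, upper quartile scaling without mitochondrial and nuclear RNAs, and edgeR. *Kmt2a*, *Kmt2d*, *Kmt2c* and *Smarca1* were called in all 13 alternative fits. DESeq2 called 3 members higher and 1 lower (125 and 16 of all genes), and no filter on low values 4 and 1 (161 and 26). Leaving out 1 library gave 3 to 6 members higher and 1 to 2 lower, and over all genes 194 to 365 higher and 21 to 218 lower, with 3 members higher without either vehicle library. A minimum mean of 50 gave 2 lower, the second being *Smarca2*. Counted by length, 3 of the 6 increases had a longest transcript of at most 10000 bases and 3 a longer one. The replicate block gave 6 higher and 2 lower, again with *Smarca2* (393 and 142 of all genes), and edgeR with a replicate block also gave 2 lower. Whether the replicate numbers of the RNA libraries pair the samples is not given in the sources used here. The deviations of replicate 1 of the 2 groups correlated at 0.005 over 12597 genes, which cannot settle it. For H3K27ac the median signal was higher in replicate 2 of either group, and the block lowered the median SE over members to 0.25. Of the 91 refitted values of the 7 called members, 13 lost their call and none changed sign. H3K27ac gave 0 called members in every alternative, and its median log2 difference over members ran from -0.27 (without GDF9 replicate 2) to 0.37 (without GDF9 replicate 1). In the fit of the 2 lines' difference 0 of 72 members were called, with 1 at an unadjusted p under 0.05, by limma. With the top 50% of peaks, 68.5% of members had an H3K27ac region with GDF9 and 69.6% with vehicle, against 49.9% and 51.8% of tested genes. Limits are the 2 libraries per group, the calls of *Kmt2b*, *Setd1a* and *Brd9* that rest on single libraries, and the spread of H3K27ac between replicates.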
